A study of Mus musculus with 18 samples.

Results

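The genes described are 48 genes of the cell cycle and of proliferation, out of the 55359 genes in the count tables. They were chosen by symbol, from what each gene does in dividing cells and with earlier results of these data known. Each of the 48 symbols matched an Ensembl gene in the tables of all 3 tissues. Bulk RNA was sequenced from 3 tissues of C57BL/6 mice aged 10 weeks: ankle joint, spinal cord (SC) and dorsal root ganglia (DRG), where sensory neurons have their somata. Mice had received 100 µl of either monosodium urate (MSU), the crystal of gout, or 1 x PBS in the right ankle joint, under the skin per the treatment protocol, and tissue was taken 8 h later. Each tissue gave 3 PBS and 3 MSU libraries, so 18 libraries formed 6 groups. The labels call the control mice untreated and wild type, whereas the treatment protocol and the column names say PBS, and they are called PBS controls here. Sex, and whether each library came from its own mouse, were not given in the sources used here, so p-values measure the spread between these libraries.

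A dividing cell copies its DNA in S phase and shares it out in mitosis. D cyclins pair with the kinases Cdk4 and Cdk6, which phosphorylate the retinoblastoma protein and free E2F factors to switch on S phase genes; a second wave, driven by the MuvB complex with Mybl2 and Foxm1, switches on mitosis genes. In an adult joint the cells that divide are mainly those of skin and marrow, neurons of the DRG and the spinal cord do not divide, and glia seldom do. In bulk RNA, fewer or more cells of a type and less or more RNA per cell cannot be told apart, and this holds for every level given below.

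Libraries held 11632950 to 38812815 counts. Levels are CPM, counts divided by library size, scaled within a tissue by TMM, and a member is said to have risen or fallen where the quasi-likelihood F test of edgeR gave an adjusted p under 0.05 over all genes tested in that tissue. The tissue labels matched their markers: sensory neuron markers summed to 3119, 3158 and 4136 CPM in the DRG controls against 4.89, 6.48 and 4.54 in the ankle, and oligodendrocyte markers to 6725, 7044 and 7876 CPM in the spinal cord controls. One library stood apart. In DRG MSU library 1 the 6 skeletal muscle markers summed to 11423 CPM, against 1346 and 1314 CPM in MSU libraries 2 and 3 and 21.2 to 209 CPM in the controls, and the DRG medians and calls that it moves are given with and without it.

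The members were most abundant in the ankle. On a scale set over all 18 libraries, 44 of 48 members were higher and 2 lower in ankle controls than in DRG controls, where 40.3% of all 20757 genes were higher and 38.4% lower. Against spinal cord controls 45 were higher and 1 lower, beside 40.0% and 38.5% of all genes. DRG controls stood above spinal cord controls for 21 members and below for 3, beside 29.9% and 26.7% of all genes. The median member was 1.70 higher on the log2 scale in ankle than in DRG controls, 2.31 higher in ankle than in spinal cord controls and 0.52 higher in DRG than in spinal cord controls.

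Among the members with the widest gaps, Mki67 (Ki-67, a chromosome surface protein of cycling cells) stood at 67.1 ± 10.4 CPM in ankle controls (SD, n = 3), 7.96 ± 3.93 CPM in DRG controls and 2.50 ± 1.21 CPM in spinal cord controls. Top2a, the topoisomerase that untangles replicated DNA, stood at 39.3 ± 9.15 CPM, 4.21 ± 2.04 CPM and 1.37 ± 0.151 CPM in the same order, so both fell from ankle to DRG to spinal cord with no overlap between the groups. Aurkb, a kinase of the chromosomal passenger complex, was close to undetected in the spinal cord, with 0, 2 and 1 counts in the 3 controls; ankle controls held 705 counts, a ratio of 138.5 with a 95% exact interval of 47.2 to 673 that covers counting error only. Kif23, the centralspindlin motor that builds the midbody in cytokinesis, stood at 9.71 ± 3.56 CPM in DRG controls against 14.6 ± 1.98 CPM in the ankle and 1.08 ± 0.304 CPM in the spinal cord, and its DRG minus SC difference of 3.19 (SE 0.28, adjusted p = 1.28e-08) was the second largest of the members. The exceptions ran the other way. E2f1, an activator of S phase genes, stood at 30.0 ± 0.105 CPM in DRG controls and at 8.33 ± 1.64 CPM in ankle controls, a log2 difference of -1.84 (SE 0.16, adjusted p = 2.46e-09). Ccne1, which encodes cyclin E1, the partner of Cdk2 at the start of S phase, was lower in ankle than in DRG controls by a log2 difference of -1.84 (SE 0.23, adjusted p = 6.67e-07) and than in spinal cord controls by -2.12 (SE 0.23, adjusted p = 1.06e-07). These 2 genes were named after their values were seen.

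**Figure D1:**
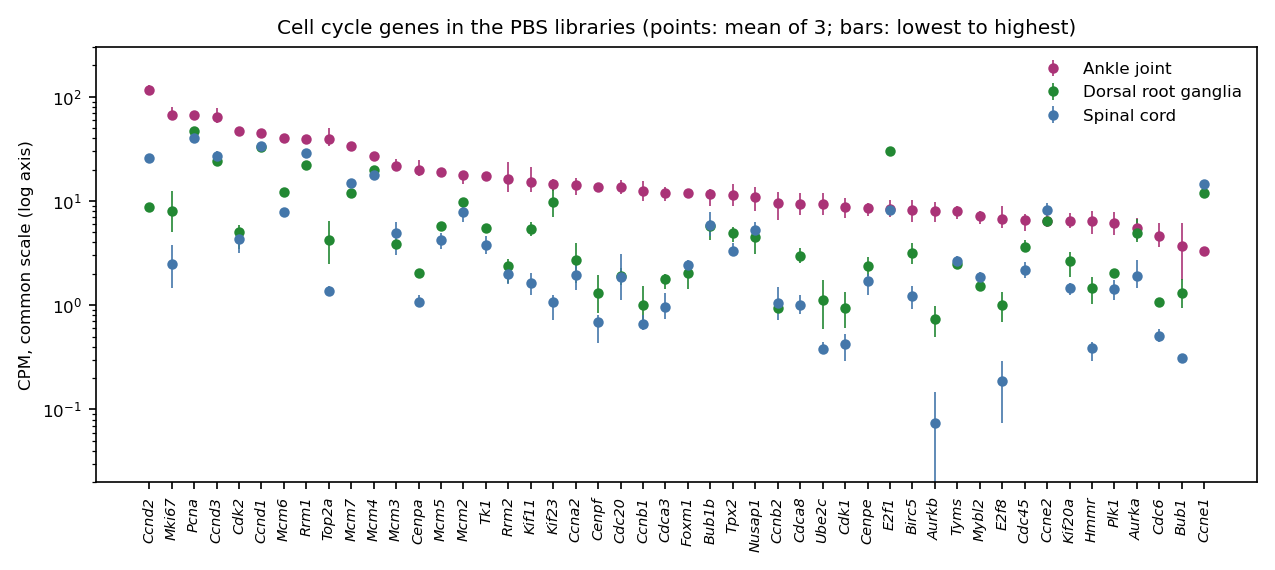
Levels of the 48 members in the PBS controls of the ankle, DRG and spinal cord, in CPM on a scale set over all 18 libraries (log axis), ordered by the ankle mean. Points are means of 3 libraries and bars run from the lowest to the highest library; ankle points lie above both nervous tissues for most members, while E2f1 and Ccne1 lie above the ankle in the DRG.

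At 8 h after MSU, 9 of 48 members passed the test in ankle, 15 of 48 in DRG and, in spinal cord, 4 of the 44 that passed the count filter. In the ankle 6 rose and 3 fell, beside 21.6% of all genes higher and 21.7% lower. In the DRG 12 rose and 3 fell, beside 16.7% and 18.7% of all genes, and in the spinal cord 3 rose and 1 fell, beside 5.60% and 4.07%. Shares of the members that passed the test were therefore 12.5% higher and 6.25% lower for ankle, 25.0% and 6.25% for DRG, and 6.82% and 2.27% for spinal cord. Ccnd3 and Mcm7 passed in all 3 tissues, 8 members passed in at least 2, and 30 passed in none. The DRG count of rises depended on single libraries: it was 6 without PBS library 1, 7 without MSU library 3 and 10 without MSU library 1, the library with muscle markers.

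The median log2 fold change of the tested members was 0.05 for ankle, 0.42 for DRG and 0.22 for spinal cord, beside -0.02, 0.02 and -0.01 for all genes tested. Without DRG MSU library 1 the DRG median was 0.29, and 35 rather than 42 members were positive. Of the tested members, 42 of 48 had a positive fold change in DRG, 30 of 44 in spinal cord and 27 of 48 in ankle. E2f8, Aurkb, Bub1 and Hmmr did not pass the count filter in the spinal cord; with no filter the medians over all 48 were 0.01, 0.43 and 0.24. In the ankle the balance of all genes depended on the scaling, with 49.9% of calls higher under TMM, 40.6% under upper quartile scaling and 39.0% in a fit of all 18 libraries; under those settings 5 members were lower instead of 3 and 5 higher instead of 6.

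**Figure D2:**
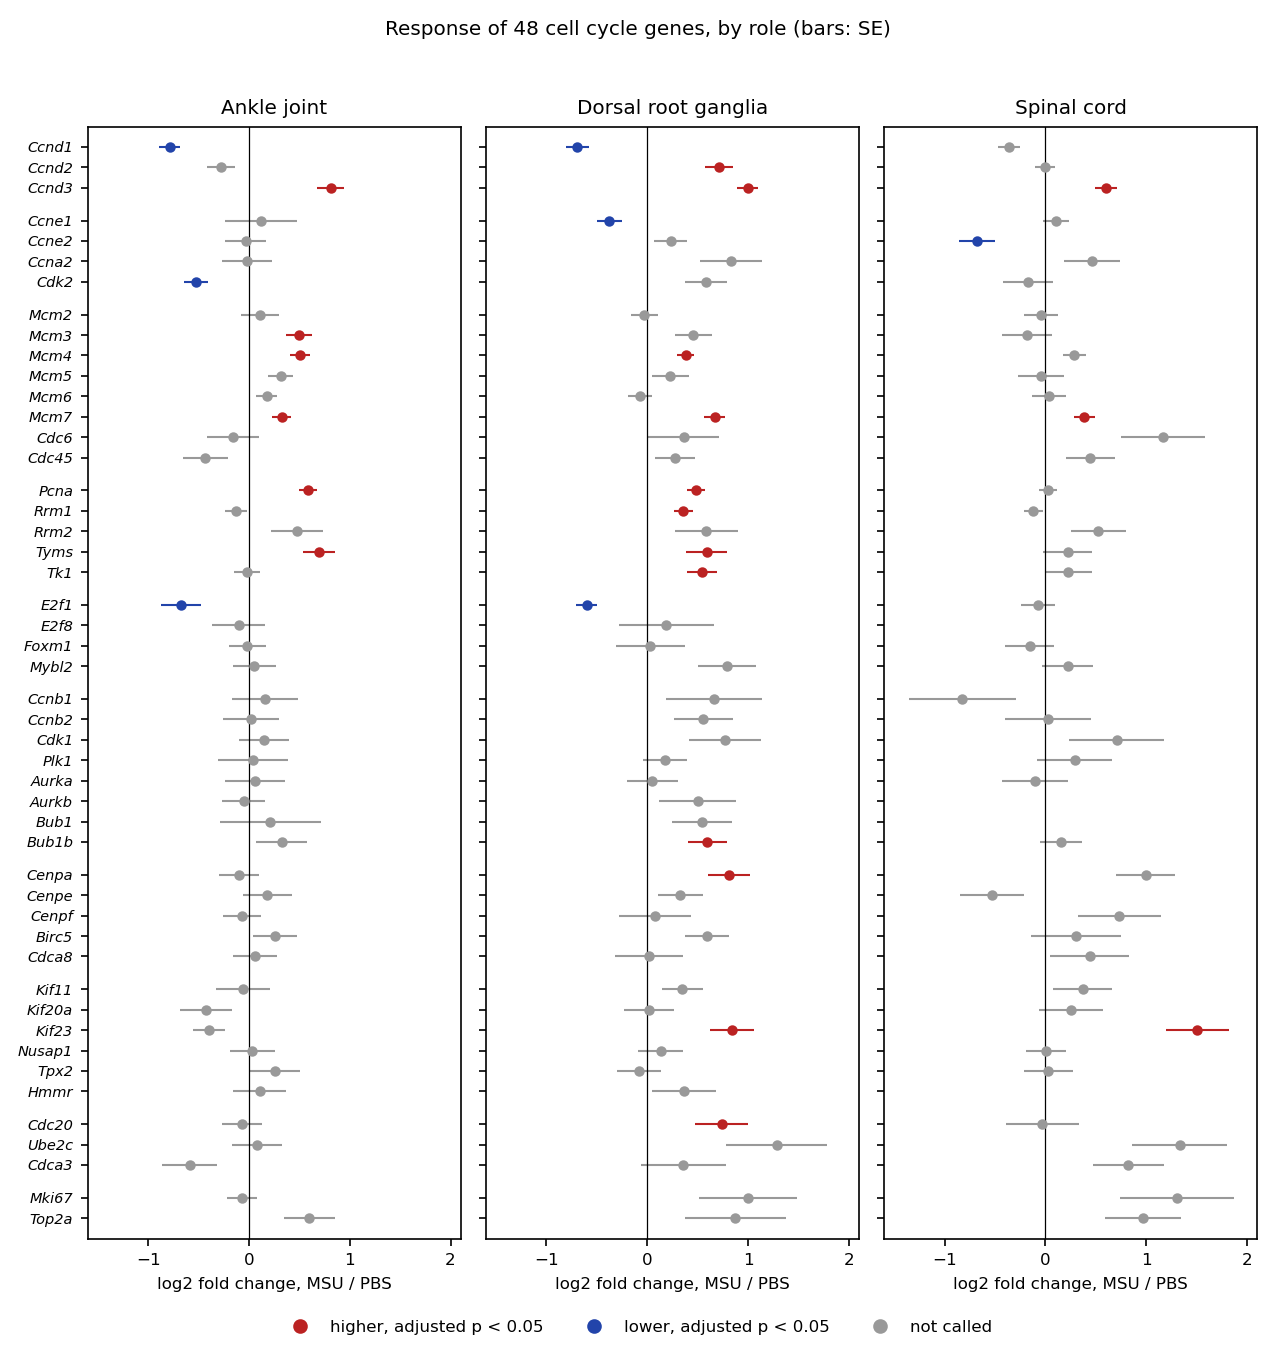
Log2 fold change, MSU over PBS, of the 48 members in the 3 tissues, grouped by role from D cyclins at the top to chromatin markers at the bottom. Points are edgeR estimates with SE, red for higher and blue for lower at an adjusted p under 0.05. In the ankle the calls lie among the D cyclins, Cdk2, E2f1 and S phase genes. In the DRG they also include 4 of the 24 mitosis members, near the share of 16.7% of all genes higher there.

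The D cyclins moved in opposite directions. Ccnd3 (ENSMUSG00000034165), cyclin D3, rose in every tissue. In the ankle it stood at 59.5, 82.7 and 59.8 CPM in the controls and 118, 119 and 118 CPM with MSU (log2 fold change 0.81, SE 0.13, adjusted p = 0.00119). In the DRG it stood at 19.8, 24.0 and 21.3 CPM in the controls and 43.4, 47.1 and 39.4 CPM with MSU (log2 fold change 1.00, SE 0.10, adjusted p = 0.000119). In the spinal cord it stood at 24.4, 26.4 and 29.7 CPM in the controls and 44.6, 42.3 and 35.1 CPM with MSU (log2 fold change 0.60, SE 0.11, adjusted p = 0.00344). All 3 MSU libraries lay above all 3 controls in each tissue, and the call held in all 13 alternative settings in each.

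Ccnd1 (ENSMUSG00000070348), cyclin D1, which growth factor signals induce in many cell types, fell in the ankle and the DRG. It was at 49.6, 43.0 and 50.2 CPM in the controls and 27.6, 27.1 and 28.2 CPM with MSU in the ankle (log2 fold change -0.78, SE 0.10, adjusted p = 0.000404). DRG levels were 28.9, 29.8 and 28.7 CPM in the controls and 14.6, 20.6 and 18.7 CPM with MSU (log2 fold change -0.69, SE 0.12, adjusted p = 0.00155). MSU libraries were below every control in both tissues. Spinal cord levels were 32.9, 31.8 and 35.4 CPM in the controls and 27.1, 22.4 and 28.5 CPM with MSU; the groups did not overlap there either, but the adjusted p of 0.0506 missed the threshold (log2 fold change -0.36) and ran from 0.0228 to 0.179 over the alternatives. Ccnd2 (ENSMUSG00000000184), cyclin D2, rose in the DRG, from a low level, and passed in neither other tissue. It stood at 8.35, 7.66 and 7.45 CPM in the controls and 10.8, 13.8 and 13.8 CPM with MSU in the DRG (log2 fold change 0.71, SE 0.14, adjusted p = 0.00284), with no overlap. In the ankle, where it was the most abundant D cyclin in the controls, it stood at 120.0, 109.8 and 141 CPM in the controls and 88.3, 119 and 98.03 CPM with MSU (log2 fold change -0.28, SE 0.14, adjusted p = 0.128), with overlapping groups. Its spinal cord log2 fold change was -0.01 (adjusted p = 0.984).

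**Figure D3:**
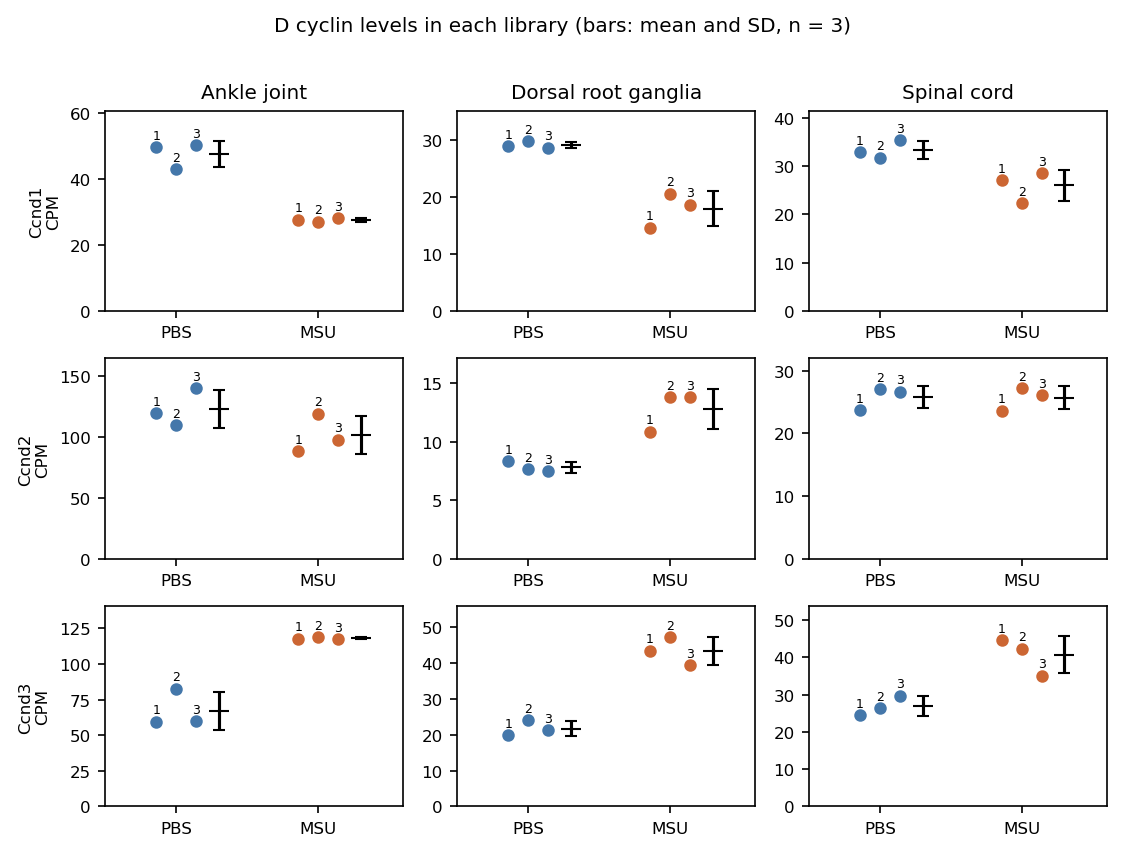
CPM of Ccnd1, Ccnd2 and Ccnd3 in each library (numbered points, PBS blue and MSU orange) with mean and SD of 3. Ccnd3 is higher and Ccnd1 lower in every MSU library than in any control of the same tissue, while Ccnd2 separates the groups in the DRG.

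Divided by exon length, the D cyclin mixture changed while its sum per kb stayed in about the same range. Ccnd3 made up 22.5, 31.2 and 21.0% of the D cyclin CPM per kb in ankle controls and 46.8, 42.4 and 45.0% with MSU. In the DRG its share was 24.3, 27.7 and 26.1% in the controls and 53.7, 47.9 and 45.2% with MSU, and in the spinal cord 22.6, 23.8 and 24.6% against 38.1, 38.7 and 31.2%. The Ccnd3 share was thus higher in each MSU library than in any control of its tissue. Ccnd1 made up 64.1 to 66.1% in DRG controls and 33.8 to 40.0% with MSU, 30.2 to 35.0% and 17.97 to 20.4% in the ankle, and 53.5 to 56.9% and 38.1 to 47.2% in the spinal cord. The sum of the 3 genes ran from 30.1 to 32.4 CPM per kb in ankle controls and from 28.7 to 32.0 with MSU. It ran from 9.28 to 9.88 and from 9.20 to 11.2 CPM per kb in the DRG, and from 12.3 to 13.7 and 12.5 to 13.3 in the spinal cord, so the groups overlapped in each tissue. Not divided by length, the DRG sums did not overlap, at 57.0 to 61.4 CPM in the controls and 68.8 to 81.4 with MSU. Those of the ankle and the spinal cord did. The lengths count every exon base, 8775 for Ccnd3 and 4709 for Ccnd1, against 3858 and 3740 in their longest transcripts. Shares and sums per kb depend on the length used. These shares carry no test; 23.4% of the Ccnd1 exon bases are shared with a gene on the other strand, LTO1, and the strand setting of the counting was not given in the sources used here. Markers of blood lineages differed in their response. For mature neutrophils all 6 were higher in the ankle, where they summed to 250.5, 723 and 285 CPM in the controls and 2095, 2849 and 3488 with MSU. In the DRG 3 of 6 were higher, with sums of 124, 61.0 and 88.4 and 344, 153 and 166 CPM, and in the spinal cord 2 of 6, with 39.3, 43.1 and 44.9 and 138, 176 and 64.1. Of the 8 B cell and 6 T cell markers, 0 were called higher in any tissue, and not all passed the count filter in the nervous tissues. Erythroid markers were higher for 0 of 6 in the ankle, 5 of 6 in the DRG and 0 of 5 tested in the spinal cord. The part of these lineages in the Ccnd3 rise was not tested.

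**Figure D4:**
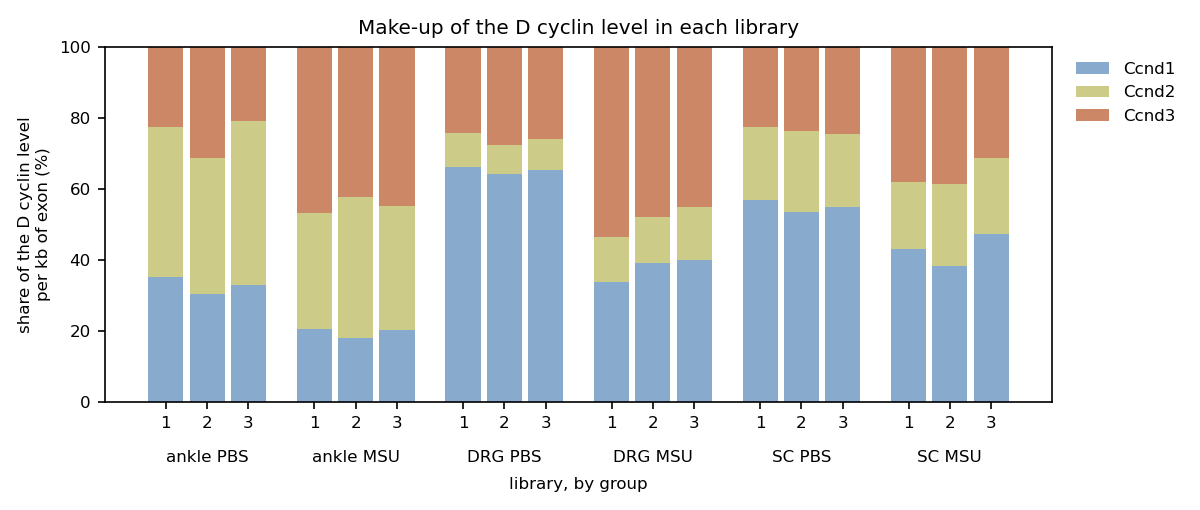
Share of Ccnd1, Ccnd2 and Ccnd3 in the summed D cyclin level per kb of exon (percent) in each of the 18 libraries. The Ccnd3 share is 21.0 to 31.2% in ankle controls and 42.4 to 46.8% with MSU, and it is higher with MSU in the DRG and the spinal cord too.

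Of the genes that act next, the E and A cyclins and Cdk2, 1 fell in each tissue and none of the 4 rose. The gene that fell differed: Cdk2 in the ankle, Ccne1 in the DRG and Ccne2 in the spinal cord. All genes gave 21.6% higher and 21.7% lower in ankle, 16.7% and 18.7% in DRG, and 5.60% and 4.07% in spinal cord. The median log2 fold change of the 4 was -0.03, 0.41 and -0.03 in the same order. At an unadjusted p under 0.05 there were 1 for ankle, 3 for DRG and 1 for spinal cord, and DESeq2 called 1, 2 and 1. Cdk2 (ENSMUSG00000025358), a kinase that helps start DNA replication, fell in the ankle, at 51.4, 49.5 and 49.6 CPM in the controls and 39.3, 35.8 and 29.5 CPM with MSU (log2 fold change -0.52, SE 0.12, adjusted p = 0.00685). The groups did not overlap, and the call held in all 13 alternatives. In the DRG all 3 MSU libraries lay above the controls instead, but the adjusted p of 0.0545 missed the threshold (log2 fold change 0.58). Ccne2, cyclin E2, fell in the spinal cord, at 7.30, 7.61 and 9.57 CPM in the controls and 5.73, 4.31 and 5.20 CPM with MSU (log2 fold change -0.68, SE 0.18, adjusted p = 0.0308). That call was lost without any 1 of 5 libraries, with adjusted p from 0.0532 without MSU library 1 to 0.136 without PBS library 3, and held without PBS library 1. Ccne2 shares 17.4% of its exon bases with Ints8 on the other strand. Ccne1 was lower in the DRG (log2 fold change -0.38, adjusted p = 0.0384), a call that held in 3 of 13 alternatives. Settings that lost it included DESeq2, upper quartile scaling, no filter, the fit of 18 libraries and leaving out any 1 of 5 libraries. The adjusted p ran up to 0.144, without MSU library 2. Ccna2, cyclin A2, which is present from S phase to mitosis, had log2 fold changes of 0.83 in the DRG (adjusted p = 0.061) and -0.02 in the ankle.

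S phase genes rose in part in the ankle and the DRG. The group holds the 6 subunits of the MCM helicase, its loader Cdc6, its cofactor Cdc45, the polymerase clamp Pcna and 4 genes of nucleotide supply, 13 members in all. Of these, 5 rose in ankle, 6 in DRG and 1 in spinal cord, beside 21.6%, 16.7% and 5.60% of all genes higher. None of the 13 fell in any tissue, beside 21.7%, 18.7% and 4.07% of all genes lower. An unadjusted p under 0.05 was found for 6, 7 and 3 of the 13, and limma-voom called 6, 6 and 1. The promoters of 2 helicase genes are shown as examples of letters that E2F factors are known to bind; they were picked with both the letters and the ankle rise of these genes in view. Capitals mark every match, on either strand, to TTTCCCGC or TTTGGCGC (E2F), CCAAT (NF-Y), TTTGAA (the cell cycle homology region, CHR) and TTTAAA (its other spelling, which may overlap a TATA-like run). Windows are from RefSeq (GRCm38.p6), 250 bases before to 50 after the start, and read 5′ to 3′ on the strand of the gene. The Mcm3 window is chr1:20820263-20820562, minus strand, and the Mcm7 window chr5:138171834-138172133, minus strand, the farther upstream of 2 for that gene.
Mcm3: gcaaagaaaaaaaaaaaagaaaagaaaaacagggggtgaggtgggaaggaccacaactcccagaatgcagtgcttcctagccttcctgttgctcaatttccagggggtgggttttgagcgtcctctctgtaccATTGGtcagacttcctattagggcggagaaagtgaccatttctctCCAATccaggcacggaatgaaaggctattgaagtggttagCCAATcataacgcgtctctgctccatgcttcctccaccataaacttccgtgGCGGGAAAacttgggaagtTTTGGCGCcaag
Mcm7: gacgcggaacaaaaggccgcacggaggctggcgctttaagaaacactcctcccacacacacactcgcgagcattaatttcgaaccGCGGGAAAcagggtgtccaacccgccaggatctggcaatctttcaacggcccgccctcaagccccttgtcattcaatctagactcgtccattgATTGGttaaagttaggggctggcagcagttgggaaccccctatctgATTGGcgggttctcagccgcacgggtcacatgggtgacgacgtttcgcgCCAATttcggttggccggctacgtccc

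Windows matched 39 of 48 members. An E2F match in either spelling was found in 5 of the 12 S phase members with a window (41.7%), in 0 of the 21 mitosis members with one, and in 1.80% of 27025 genes. CCAAT was found in 75.0% of these S phase members and in 41.1% of all genes. The 5 were Mcm3, Mcm5, Mcm6, Mcm7 and Cdc6, of which Mcm5, Mcm6 and Cdc6 passed the test in no tissue, and the nearer of the windows of Mcm7 had no match. Pcna and Tyms rose and had none. A match describes the letters in the window and is not a measured site.

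Mcm7 (ENSMUSG00000029730) rose in each tissue. It stood at 10.6, 10.5 and 10.8 CPM in the controls and 17.9, 16.4 and 16.3 CPM with MSU in the DRG (log2 fold change 0.67, SE 0.10, adjusted p = 0.000926), with the 3 MSU libraries well clear of the controls. Mcm7 is 1 of 18 members that share exon bases with another gene (12.6% of its bases, with Ap4m1 and Cops6 on the other strand). In the ankle it stood at 36.3, 36.2 and 34.1 CPM in the controls and 44.9, 45.4 and 43.4 CPM with MSU (log2 fold change 0.33, SE 0.09, adjusted p = 0.0192), a call that held in 9 of 13 alternatives: it was lost under upper quartile scaling, with no filter (adjusted p = 0.0973), and without PBS library 2 (adjusted p = 0.0528) or PBS library 3 (adjusted p = 0.0694). Its spinal cord levels were 15.4, 15.1 and 14.1 CPM in the controls and 19.4, 19.6 and 19.3 CPM with MSU (log2 fold change 0.39, SE 0.10, adjusted p = 0.0332). Groups did not overlap there, but that call held in 6 of 13 alternatives and was lost without any 1 of the 6 libraries, with adjusted p from 0.0581 without MSU library 3 to 0.0934 without PBS library 2. Mcm4 rose in the ankle, at 28.0, 28.9 and 29.7 CPM in the controls and 40.0, 38.7 and 44.2 CPM with MSU (log2 fold change 0.51, SE 0.10, adjusted p = 0.00366). It also rose in the DRG (log2 fold change 0.38, adjusted p = 0.00637), and in the spinal cord its log2 fold change was 0.29 (adjusted p = 0.144). Mcm3 rose in the ankle, at 21.4, 26.8 and 21.3 CPM in the controls and 34.9, 31.4 and 32.0 CPM with MSU (log2 fold change 0.50, SE 0.13, adjusted p = 0.0118), a call that held in 11 of 13 alternatives: it was lost without PBS library 3 (adjusted p = 0.0526) and in the fit of 18 libraries (adjusted p = 0.0888). The 6 subunits form 1 ring. Mcm2 and Mcm6 passed in no tissue, with log2 fold changes of 0.11 and 0.18 in the ankle and -0.03 and -0.07 in the DRG; Mcm5 passed in none either. Cdc6 had its largest log2 fold change in the spinal cord, 1.17 (adjusted p = 0.103), at under 2 CPM in every library.

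Pcna (ENSMUSG00000027342), the most abundant member per kb of exon in the controls of all 3 tissues, rose in the ankle and the DRG. In the ankle it stood at 74.0, 66.5 and 72.4 CPM in the controls and 109, 99.4 and 111 CPM with MSU (log2 fold change 0.59, SE 0.09, adjusted p = 0.00089). In the DRG it stood at 41.1, 42.3 and 42.5 CPM in the controls and 52.0, 63.4 and 60.4 CPM with MSU (log2 fold change 0.48, SE 0.09, adjusted p = 0.002), again with no overlap. Spinal cord levels were 40.0, 42.2 and 39.3 CPM in the controls and 39.7, 45.4 and 38.5 CPM with MSU, which overlapped (log2 fold change 0.03, adjusted p = 0.904). Tyms, thymidylate synthase, which makes the thymine nucleotide, rose in the ankle at 9.33, 8.72 and 7.22 CPM in the controls and 13.6, 13.8 and 13.7 CPM with MSU (log2 fold change 0.70, SE 0.16, adjusted p = 0.00707). In the DRG it stood at 2.07, 2.26 and 2.37 CPM in the controls and 3.12, 3.73 and 3.18 CPM with MSU (log2 fold change 0.59, SE 0.20, adjusted p = 0.0436). Every DRG library with MSU was above the controls, but that call held in 5 of 13 alternatives. Settings that lost it included DESeq2, no filter, the fit of 18 libraries and leaving out any 1 of 4 libraries. The adjusted p ran up to 0.159, without MSU library 2. Rrm1, the large subunit of ribonucleotide reductase, rose in the DRG (log2 fold change 0.36, adjusted p = 0.0142; lost in the fit of 18 libraries, adjusted p = 0.0514), as did the salvage kinase Tk1 (0.55, adjusted p = 0.0163), whose call was lost in the fit of 18 libraries and without PBS library 1 (adjusted p = 0.0701) or MSU library 3 (adjusted p = 0.0734). Rrm2, the subunit that is made in S phase, passed in no tissue, with log2 fold changes of 0.47, 0.59 and 0.52 in the ankle, DRG and spinal cord. The 5 genes of this group summed to 156, 162 and 153 CPM in ankle controls and 209, 194 and 199 with MSU, and to 76.9, 79.1 and 77.8 and 78.3, 78.7 and 77.9 CPM in the spinal cord.

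**Figure D5:**
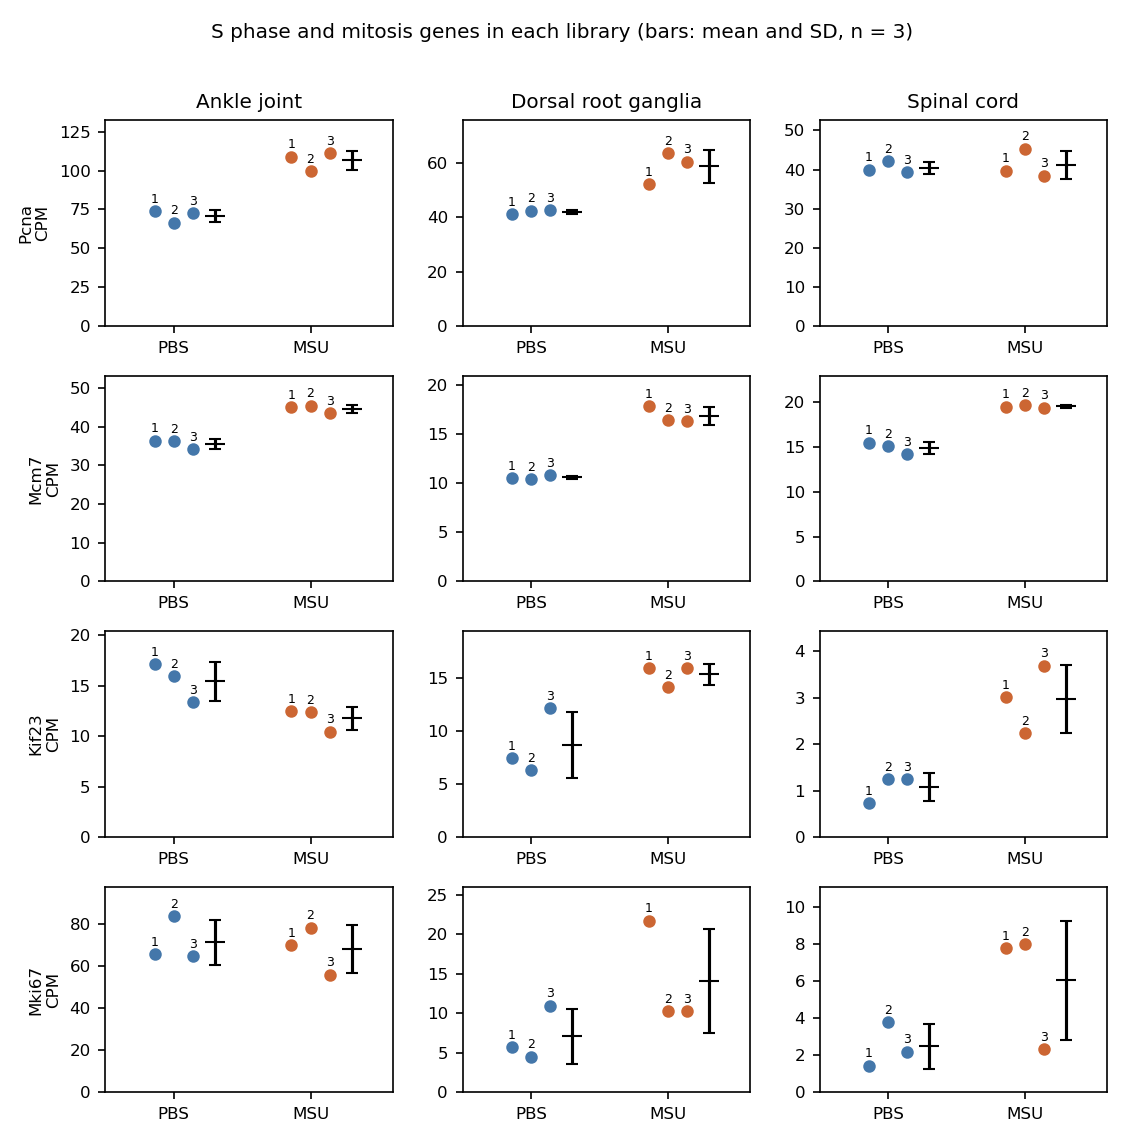
CPM of 2 S phase members (Pcna, Mcm7) and 2 mitosis members (Kif23, Mki67) in each library (numbered points, PBS blue and MSU orange) with mean and SD of 3. Pcna and Mcm7 separate the groups in the ankle and the DRG, Mcm7 in the spinal cord as well, Kif23 is higher with MSU in the DRG and spinal cord, and Mki67 overlaps between groups in each tissue.

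Of the 4 proliferation transcription factors, E2f1 fell in the DRG and the ankle and the other three passed in no tissue. In the DRG E2f1 stood at 26.6, 27.2 and 26.5 CPM in the controls and 20.0, 15.3 and 17.9 CPM with MSU (log2 fold change -0.60, SE 0.11, adjusted p = 0.00184), with all MSU libraries below the controls, and the call held in all 13 alternatives. In the ankle it stood at 10.7, 7.42 and 8.39 CPM in the controls and 5.86, 5.36 and 5.45 CPM with MSU (log2 fold change -0.67, SE 0.20, adjusted p = 0.0232), again with no overlap, but that call was lost without PBS library 1 (adjusted p = 0.0876), PBS library 3 (adjusted p = 0.05), MSU library 2 (adjusted p = 0.0616) or MSU library 3 (adjusted p = 0.0597). Its spinal cord value was -0.08 on the log2 scale (adjusted p = 0.837). In DRG, the tissue with the highest E2f1 level, 4 of 6 neuron markers were also lower with MSU, with sums of 8189, 7904 and 9078 CPM in the controls and 7181, 6798 and 6898 with MSU; their part in the E2f1 fall was not tested. Foxm1 and Mybl2 drive mitosis genes, and E2f8 represses E2F targets. Their log2 fold changes were -0.02, 0.05 and -0.10 in the ankle, and Mybl2 had 0.79 in the DRG (adjusted p = 0.0561).

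The 24 mitosis members gave no call in the ankle under edgeR, although their ankle levels were the highest of the 3 tissues; 2 had an unadjusted p under 0.05, DESeq2 called 1 and limma-voom 0. Their median log2 fold change there was 0.05, from -0.59 for Cdca3 to 0.60 for Top2a. Of all genes in the ankle, 21.6% were higher and 21.7% lower. In the DRG 4 of the 24 mitosis members rose (Kif23, Cenpa, Cdc20 and Bub1b), near the all-gene share of 16.7% higher. There 23 of 24 had a positive fold change and the median was 0.52. Without MSU library 1 the DRG median of the mitosis members was 0.27 and 19 were positive. In the spinal cord 1 of the 21 tested rose (Kif23), beside 5.60% of all genes higher, 17 were positive and the median was 0.31. The promoters shown are of a pair of genes with a call or a near call in both nervous tissues and none in the ankle, since the CHR is the element through which MuvB complexes are known to bind mitosis genes. Capitals mark the same letters as above. The Kif23 window is chr9:61946750-61947049, minus strand, and the Cenpa window chr5:30666636-30666935, plus strand.
Kif23: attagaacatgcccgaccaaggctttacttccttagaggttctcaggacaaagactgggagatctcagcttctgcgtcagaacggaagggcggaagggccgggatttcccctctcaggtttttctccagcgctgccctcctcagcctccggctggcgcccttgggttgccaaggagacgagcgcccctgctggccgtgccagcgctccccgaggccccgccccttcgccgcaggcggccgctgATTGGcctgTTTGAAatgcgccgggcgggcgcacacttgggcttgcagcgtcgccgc
Cenpa: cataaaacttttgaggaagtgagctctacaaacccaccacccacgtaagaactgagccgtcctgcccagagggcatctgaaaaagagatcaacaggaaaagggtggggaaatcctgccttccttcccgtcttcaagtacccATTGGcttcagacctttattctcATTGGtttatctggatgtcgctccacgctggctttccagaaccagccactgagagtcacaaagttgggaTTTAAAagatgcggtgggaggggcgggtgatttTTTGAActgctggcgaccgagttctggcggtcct

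TTTGAA was found in 16 of the 21 mitosis members with a window (76.2%), in 2 of 12 S phase members (16.7%) and in 20.2% of all genes. CCAAT was found in 19 of these 21 (90.5%). The 48 genes were chosen without regard to these letters, and the promoters shown were chosen with them in view.

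Kif23 (ENSMUSG00000032254) had the largest rise of any member called. In the spinal cord it stood at 0.726, 1.24 and 1.25 CPM in the controls and 3.01, 2.23 and 3.69 CPM with MSU (log2 fold change 1.51, SE 0.32, adjusted p = 0.00788), a 2.84-fold rise on 49 counts in the controls and 193 with MSU, and the call held in all 13 alternatives. In the DRG it stood at 7.43, 6.34 and 12.2 CPM in the controls and 15.9, 14.2 and 15.9 CPM with MSU (log2 fold change 0.84, SE 0.22, adjusted p = 0.0177). PBS library 3 was high for a control there, and the call was lost without PBS library 1 (adjusted p = 0.0724) or MSU library 3 (adjusted p = 0.0659) but not without MSU library 1. Ankle levels were 17.1, 15.9 and 13.3 CPM in the controls and 12.5, 12.4 and 10.4 CPM with MSU: each MSU library was below each control, and the adjusted p of 0.0743 missed the threshold (log2 fold change -0.39).

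Cenpa, the histone variant that marks centromeres, rose in the DRG, at 1.73, 1.82 and 1.95 CPM in the controls and 3.66, 3.02 and 3.01 CPM with MSU (log2 fold change 0.81, SE 0.21, adjusted p = 0.0129). The call was lost without PBS library 1 (adjusted p = 0.0523). In the spinal cord every MSU library was above the controls, at 0.967, 1.24 and 1.03 CPM in the controls and 2.47, 2.18 and 1.80 CPM with MSU, and the adjusted p of 0.0507 missed the threshold (log2 fold change 1.00). Cdc20, the activator of the anaphase-promoting complex, rose in the DRG at 1.65, 1.42 and 2.01 CPM in the controls and 3.66, 2.65 and 2.24 CPM with MSU (log2 fold change 0.74, SE 0.26, adjusted p = 0.0493). That call held in 3 of 13 alternatives. Settings that lost it included DESeq2 and limma-voom (each called 4 of the 24), the size factors of DESeq2 in edgeR and the fit of 18 libraries. It was also lost without any 1 of 5 libraries, with adjusted p up to 0.151. Without MSU library 1 the log2 fold change was 0.53 (adjusted p = 0.136). Bub1b, a spindle checkpoint kinase-like protein, rose in the DRG at 3.74, 5.89 and 5.79 CPM in the controls and 8.20, 7.37 and 7.58 CPM with MSU (log2 fold change 0.60, SE 0.19, adjusted p = 0.0352). The call held in 7 of 13 alternatives. Among the settings that lost it were the fit of 18 libraries (adjusted p = 0.15) and leaving out PBS library 1 (log2 fold change 0.40, adjusted p = 0.114). It was also lost without any MSU library (adjusted p = 0.0504 without MSU library 1).

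The usual markers of cycling cells, Mki67 and Top2a, passed in no tissue, and their spread between libraries was wide. Mki67 (ENSMUSG00000031004) stood at 1.45, 3.81 and 2.21 CPM in the controls and 7.80, 8.02 and 2.35 CPM with MSU in the spinal cord (log2 fold change 1.31, SE 0.56, adjusted p = 0.233). MSU libraries 1 and 2 lay above every control and MSU library 3 among them. In the DRG Mki67 stood at 5.72, 4.52 and 11.0 CPM in the controls and 21.7, 10.3 and 10.3 CPM with MSU (log2 fold change 1.00, SE 0.49, adjusted p = 0.18); MSU library 1 was the highest, and the other two lay within the range of the controls. In the ankle it stood at 65.7, 83.5 and 64.6 CPM in the controls and 70.0, 78.2 and 55.8 CPM with MSU (log2 fold change -0.07, SE 0.15, adjusted p = 0.738). Top2a followed the same libraries, at 1.31, 1.54 and 1.25 CPM in the controls and 3.75, 3.04 and 1.26 CPM with MSU in the spinal cord (log2 fold change 0.97, SE 0.38, adjusted p = 0.138). It was at 3.24, 2.26 and 5.74 CPM in the controls and 11.1, 3.97 and 5.49 CPM with MSU in the DRG (log2 fold change 0.87, SE 0.50, adjusted p = 0.232), where MSU library 1 was again the highest. Ankle levels of Top2a were 36.4, 52.7 and 36.1 CPM in the controls and 67.9, 78.5 and 42.9 CPM with MSU (log2 fold change 0.60, SE 0.25, adjusted p = 0.0971), with overlapping groups; DESeq2 called this gene. Ccnb1, cyclin B1, which takes cells into mitosis with Cdk1, stood at 10.4, 16.6 and 12.5 CPM in the controls and 17.2, 18.9 and 7.80 CPM with MSU in the ankle (log2 fold change 0.16, SE 0.33, adjusted p = 0.719). In the DRG it stood at 0.698, 0.620 and 1.36 CPM in the controls and 2.44, 1.09 and 0.769 CPM with MSU (log2 fold change 0.66, SE 0.48, adjusted p = 0.315), and in the spinal cord at 0.580, 0.805 and 0.589 CPM in the controls and 0.296, 0.660 and 0.168 CPM with MSU (log2 fold change -0.82, SE 0.53, adjusted p = 0.391), near 1 CPM or under it. Groups overlapped in all 3 tissues, and pseudogene copies of Ccnb1 with over 95% identity held 0 to 3 counts over the 18 libraries. Of the members with calls, Pcna, Ccnd3, Mcm7 and Tyms also have such copies (58 counts for Pcna-ps2, 10 for Ccnd3-ps, 0 for Gm5487 and 3 for Tyms-ps). Stretches of Tyms also match expressed genes at over 95% identity, among them Reep3 and Map3k2, so its counts are the less certain.

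Some libraries with a high sum of the mitosis members also had high sums of some other markers, and others did not. In the ankle the 24 genes summed to 336, 424 and 297 CPM in the controls and 394, 448 and 271 with MSU. The high control (library 2) and the low MSU library (library 3) were also the highest control and the lowest MSU library for neutrophil progenitor markers, whose sums were 27.8, 139.8 and 38.1 and 100.0, 105 and 49.0 CPM. Of these 6 progenitor markers, 0 passed the test in the ankle. B cell and endothelium markers had the same highest control and lowest MSU library there. Their sums were 140, 203 and 173 CPM in the controls and 265, 203 and 144 with MSU for B cells. For endothelium they were 367, 474 and 435 CPM in the controls and 455, 478 and 432 with MSU. Basal keratinocyte markers, of the dividing layer of skin, were lower for 4 of 6, with sums of 5844, 5112 and 5558 CPM in the controls and 2524, 3889.9 and 2783 with MSU. In the DRG the mitosis members summed to 61.6, 54.1 and 85.3 CPM in the controls and 125, 82.1 and 86.9 with MSU. PBS library 3, the highest control, had the lowest muscle sum of the controls (21.2 CPM) and the highest erythroid sum of the controls. MSU library 1 was the highest of the 6 DRG libraries for 16 of the 24 genes, and its muscle, neutrophil (344, 153 and 166 CPM in the 3 MSU libraries) and erythroid sums were the highest too. Erythroid markers were higher in the DRG for 5 of 6 genes, with sums of 220.4, 170.1 and 228 CPM in the controls and 542, 418 and 352 with MSU. Without MSU library 1, Mki67 had a log2 fold change of 0.56 in the DRG and Top2a 0.38, against 1.00 and 0.87 with it. Spinal cord sums were 34.1, 40.9 and 37.7 and 61.1, 48.01 and 39.4 CPM, with MSU library 1 the highest for 15 of 24 genes and MSU library 3 the lowest of the 3 sums. Neutrophil markers of spinal cord MSU library 3 were also the lowest of the MSU libraries, at 64.1 against 138 and 176 CPM. Their highest sum was in MSU library 2 and not in library 1. The part of these cell types in the mitosis levels was not tested. MSU library 1 of the DRG and MSU library 1 of the spinal cord carry the same number in the deposited column names. Whether they came from the same mouse was not given, so the high levels in both may not be independent.

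The rest of the mitosis members, named by range, went from -0.08 for the spindle assembly factor Tpx2 to 1.28 for Ube2c, the ubiquitin-conjugating enzyme of mitotic exit, in the DRG. Ube2c had an adjusted p of 0.0769 there and its level in MSU library 1 was 4.13 CPM, against 1.70 and 1.43 in libraries 2 and 3; 22.8% of its exon bases are shared with the muscle gene Tnnc2 on the other strand, whose part in this level was not tested. Spinal cord values ran from -0.82 for Ccnb1 to 1.51 for Kif23. Aurkb, not tested in the spinal cord fit, held 3 counts in the controls and 31 in the MSU libraries there, a ratio of 7.76 with a 95% exact interval of 2.42 to 39.7 for counting error only.

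The response itself differed between tissues for some members, by a test of the interaction over all 18 libraries. Between ankle and DRG, 0 members had a higher and 6 a lower ankle response, beside 14.3% and 18.1% of all genes; the median over all genes was -0.13. Kif23 differed by -1.25 (SE 0.32, adjusted p = 0.00545) on the log2 scale, Cdk2 by -1.11 (SE 0.28, adjusted p = 0.00509), Ccnd2 by -1.01 (SE 0.17, adjusted p = 0.000221), Cenpa by -0.93 (SE 0.28, adjusted p = 0.0154) and Rrm1 by -0.50 (SE 0.14, adjusted p = 0.0105). The ankle responses of Cdk2 and Ccnd2 were negative and their DRG responses positive. Between ankle and spinal cord, 1 member had a higher and 8 a lower ankle response, beside 9.15% and 17.6% of all genes, with an all-gene median of -0.16. Kif23 differed by -2.03 (SE 0.37, adjusted p = 0.00043) and Cenpa by -1.22 (SE 0.30, adjusted p = 0.00549), in the direction seen against the DRG, with ankle libraries shared by both tests. Cdc6 differed by -1.45 (SE 0.49, adjusted p = 0.0347) and Cdca3, an adaptor for the destruction of mitotic entry kinases, by -1.53 (SE 0.55, adjusted p = 0.0453). The Cdca3 call held in 8 of 24 alternatives. The fitted difference of Aurkb, -3.02, rests on 3 control counts in the spinal cord and depends on the prior count of edgeR. Between DRG and spinal cord, 2 members had a higher DRG response and 0 a lower one, beside 3.11% and 10.4% of all genes: Ccne2 by 0.81 (SE 0.26, adjusted p = 0.0491) and Ccnd2 by 0.62 (SE 0.18, adjusted p = 0.0264). The Ccne2 call held in 9 of 24 alternatives and that of Ccnd2 in 15. For that last comparison DESeq2 called 5 members and limma-voom 1. All-gene medians here were shifted, so a difference near -0.13 or -0.16 is the median gene and not a difference particular to a member.

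Genes that hold the cycle back were listed together with regulators of arrest, among them Mdm2, which opposes p53. Of 25 inhibitor and arrest genes, none of them members, 10 rose and 7 fell of 24 tested for ankle, 13 rose and 0 fell of 25 for DRG, and 7 rose and 0 fell of 24 for spinal cord. All genes gave 21.6% higher and 21.7% lower in ankle, 16.7% and 18.7% in DRG, and 5.60% and 4.07% in spinal cord, against 41.7% and 29.2%, 52.0% and 0%, and 29.2% and 0% of this list. Its medians were 0.45, 0.29 and 0.14. This list and those below were chosen with earlier results of these data known, so their shares are no independent test. Cdkn1a, the p21 inhibitor of cyclin-dependent kinases, stood at 26.3, 23.5 and 38.7 CPM in the controls and 153, 173 and 136 CPM with MSU in the spinal cord (log2 fold change 2.39, SE 0.19, adjusted p = 0.000201). In the DRG it stood at 63.3, 60.3 and 63.6 CPM in the controls and 142, 125 and 130.0 CPM with MSU (log2 fold change 1.08, SE 0.07, adjusted p = 9.65e-06), and in both tissues no library overlapped between groups. Ankle levels were 174, 265 and 189 CPM in the controls and 246, 316 and 394 CPM with MSU (log2 fold change 0.61, SE 0.21, adjusted p = 0.052), with overlap. Btg2, an antiproliferative gene that p53 and stress signals induce, rose by 1.84 in DRG (adjusted p = 9.54e-05) and 1.82 in spinal cord (adjusted p = 0.000396). Gadd45g, a stress gene of the same growth arrest class, rose by 2.05, 1.54 and 1.99 in ankle, DRG and spinal cord, and the p53 target Sesn1 by 0.53 in DRG and 0.52 in spinal cord. In the ankle Gadd45a rose by 1.55, Cdkn2d, an inhibitor of Cdk4 and Cdk6, by 1.41 and Trp53 by 0.71. The 7 falls in the ankle included 3 other kinase inhibitors, Cdkn2c, Cdkn1c and Cdkn2b, which were named after their values were seen, with log2 fold changes of -1.004, -1.19 and -0.69.

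Other S phase and mitosis genes, also not members, stand beside the same all-gene shares. Of 32 S phase genes, 3 of 31 tested rose in the ankle (9.68%; E2f3, Mcm10 and E2f7, by 0.52, 0.74 and 0.86), 2 rose and 1 fell of 31 for DRG (6.45% and 3.23%), and 0 rose and 1 fell of 30 for spinal cord (3.33% lower). The faller was E2f3, an activator of S phase genes, in both nervous tissues (-0.70 and -0.40), while Orc6 and Rfc4, of the origin recognition and clamp loader complexes, rose in the DRG by 0.47 and 0.61. Of 38 mitosis genes, 1 was higher and 2 were lower with MSU in the ankle (2.63% and 5.26%): Cenpm by 0.91, the phosphatase Cdc25b by -0.99 and the cytokinesis protein Anln by -0.63. In the DRG 2 of 36 rose (5.56%), the securin Pttg1 by 0.58 and the Cdk cofactor Cks1b by 0.57. Their DRG median was 0.28, with 32 of 36 positive. In the spinal cord edgeR called 0 of 30 and DESeq2 0, limma-voom called 1, and 5 had an unadjusted p under 0.05.

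A list of 15 genes of the Myc network and growth mixed growth genes with Mxd1, Mxd3, Mxd4 and Mxi1, of the family that represses Myc targets. Its calls are therefore not all those of growth genes. Of this list, 10 of 15 rose and 4 fell in ankle libraries, against 8 and 1 of 14 for DRG and 4 and 1 of 14 for spinal cord. These are 66.7% and 26.7%, 57.1% and 7.14%, and 28.6% and 7.14% of the list, read against the all-gene shares above. The 4 ankle falls were those of Mycl and Mycn, relatives of Myc, with log2 fold changes of -3.01 and -2.17, and of Mxd4 and Mxi1. Ankle rises are the ribosome assembly genes Nop58 and Fbl and the polyamine enzymes Odc1 and Srm, with log2 fold changes of 1.46, 1.17, 1.71 and 1.40. Odc1 also rose in the DRG (0.78) and the spinal cord (0.42), and Npm1 by 0.65 in the DRG. Myc rose by 0.79 in the spinal cord. Mxd4 and Mxi1, partners of Max that repress Myc targets, rose in the nervous tissues, Mxd4 by 1.12 and Mxi1 by 0.45 in the spinal cord and by 0.57 and 0.78 in the DRG, while in the ankle they fell, by values named after they were seen (-0.80 and -0.32).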

How the data were processed

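RNA of 18 libraries was extracted with TRIzol and prepared with the VAHTS Universal V6 kit for MGI sequencing, per the labels' protocols. The authors deposited raw counts per Ensembl gene, and the submitters' processing notes name HISAT2, HTSeq 0.11.3, DESeq2 and mm39 without their order; the annotation release and strand setting were not given in the sources used here. Counts were tested per tissue with edgeR 4.0.16 (R 4.3.3; TMM, filterByExpr with minimum counts of 10 and 15, robust quasi-likelihood F test, two-sided), with Benjamini-Hochberg adjustment over all genes tested at a threshold of 0.05. SE is the absolute log2 fold change divided by the square root of F. Interactions and contrasts between control tissues came from 1 fit of 18 libraries. DESeq2 1.42.0, limma-voom (limma 3.58.1), other scalings, no filter, a replicate block, a fold minimum and leaving out each library were alternatives, and the fit was tested on simulated data. Levels per kb used GENCODE M21 exon lengths, promoters came from RefSeq, copies from BLAST 2.17.0 and exact intervals from scipy 1.17.1.

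No 2 libraries of a group agreed within sampling noise (chi-square per degree of freedom at least 5.29). Within a tissue, PBS and MSU libraries of the same replicate number deviated with correlations of 0.28, 0.19 and -0.13 (ankle), 0.11, 0.12 and -0.02 (DRG), and 0.25, 0.10 and -0.14 (spinal cord). Numbers were therefore not taken to pair PBS with MSU libraries. This check does not cover pairing across tissues. The numbers in the deposited column names differ from the replicate numbers used here, and some recur across tissues. Whether they mark the same mouse was not given, and the fit of 18 libraries treated all libraries as independent. The members and lists were chosen with earlier results of these data known. Full values were given for up to 10 called members per tissue with the largest changes and for 8 set genes, for up to 4 called genes of each further list with the smallest p, and for up to 5 members per interaction or control contrast with the largest differences. Other genes named were chosen after their values were seen.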

Additional observations from a re-analysis of the deposited data

Results flagged for a closer look

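The response to MSU differed between tissues, by the interaction test of edgeR, for 6 of 48 members between ankle and DRG. In all 6 the ankle response was the lower, beside 14.3% of all genes with a higher and 18.1% with a lower ankle response. The ankle minus DRG difference on the log2 scale was -1.25 for Kif23, -1.11 for Cdk2, -1.01 for Ccnd2, -0.93 for Cenpa, -0.50 for Rrm1 and -0.36 for Mcm7. Those of Kif23, Cdk2, Ccnd2 and Rrm1 held in all 24 alternatives, that of Cenpa in 22 and that of Mcm7 in 12.

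Between ankle and spinal cord 9 of 48 members differed, 1 with a higher and 8 with a lower ankle response. Of all genes, 9.15% had a higher and 17.6% a lower ankle response. The ankle minus SC difference was -2.03 for Kif23, which held in all 24 alternatives, -1.22 for Cenpa, which held in 23, and 0.44 for Pcna, the single positive one, which also held in 23. It was -0.55 for Ccnd1, -0.72 for E2f1, -1.004 for Cdc45 and -1.45 for Cdc6, which held in 19, 18, 17 and 16 of 24. Aurkb had -3.02 on 3 control counts in the spinal cord, and Cdca3 -1.53, which held in 8 of 24.

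Between DRG and spinal cord the difference was 0.62 for Ccnd2, which held in 15 of 24 alternatives, and 0.81 for Ccne2, which held in 9. These 2 of 48 members had a higher DRG response and 0 a lower one, beside 3.11% and 10.4% of all genes. All 3 sets of differences share libraries with each other.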

How the results depend on the processing

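Of the values for single genes, 1441 kept their side of the threshold over the alternatives, 143 lost and 26 gained a call, and no value changed direction while called. The 1441 include values called in neither fit, whose direction could change. Ccnd2 in the spinal cord, for example, had a log2 fold change of -0.005 in the main fit and 0.007 with no filter. A log2 fold change of at least 1 as the call rule left 0 members higher and 0 lower for both ankle and DRG, and 1 and 0 for spinal cord, with 18.7, 5.73 and 3.07% of all genes called. Ankle falls numbered 5 under upper quartile scaling, with no count filter and in the fit of all 18 libraries. Spinal cord rises numbered 7 with no filter and 5 in the fit of 18 libraries, and falls 2 under upper quartile scaling, no filter, DESeq2 and the replicate block. With no filter 24.7% (ankle) and 20.6% (DRG) of all genes were called, and the fit of 18 libraries called 5.87% in the spinal cord. The ankle minus SC count was 5 under limma-voom. The DRG minus SC count was 4 under upper quartile scaling, 1 with no filter, 5 under DESeq2, 1 under limma-voom and 0 with the replicate block, where the shared numbers are not known to pair libraries. Leaving out 1 library gave 6 to 15 DRG rises, 2 to 5 spinal cord rises, 0 to 1 spinal cord falls, 4 to 9 members for ankle minus SC and 0 to 3 for DRG minus SC; it gave 23.4 to 40.3% of all genes called in the DRG and 5.88 to 10.5% in the spinal cord. The cause of these shifts was not tested. Low counts limit the spinal cord values, where 4 members did not pass the count filter and 8 of the 24 mitosis members averaged under 1 CPM in the controls.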

Other observations

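Per kb of exon, the members' own order in the controls differed between tissues, and the order carries no test. Pcna was first in each, at 29.6 ± 1.63 CPM per kb in the ankle (SD, n = 3), 17.5 ± 0.314 in DRG and 16.9 ± 0.630 in spinal cord controls. The next ankle members were the D cyclins Ccnd2, at 13.1 ± 1.67, and Ccnd1, at 10.1 ± 0.850 CPM per kb, and then the helicase subunit Mcm6, at 9.20 ± 0.417. In DRG controls the second member was E2f1, at 8.49 ± 0.105 CPM per kb, and Ccnd1 followed at 6.19 ± 0.128. Spinal cord controls held Ccnd1 second, at 7.09 ± 0.396, and Ccne1 next, at 5.40 ± 0.520 CPM per kb. At the other end stood Bub1, a spindle checkpoint kinase, at 0.907 ± 0.549 CPM per kb in the ankle, the kinetochore protein Cenpf at 0.0750 ± 0.0323 in DRG and Aurkb at 0.0249 ± 0.0248 in spinal cord controls.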
